A study of Mus musculus with 4 samples.

Results

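The genes described here are the mouse Zfp genes, taken as every gene whose name in the deposited site lists begins with Zfp followed by a digit. They numbered 134 of the 5934 genes with a listed N6-methyladenosine (m6A) site. The rule used the name only and no measured value. In wild-type (WT) pancreas 114 of 5085 listed genes were Zfp genes, with 155 of 10514 sites. In the Mettl3 knockout (KO) 44 of 2778 listed genes were Zfp genes, with 53 of 3937 sites.

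Pancreata were dissected from E15.5 mouse embryos, and the cells are labelled as pancreatic. The WT group kept Mettl3, the enzyme subunit that writes m6A, and the KO group lacked it in Pdx1-positive pancreatic progenitors. Cells of the organ that do not descend from these progenitors keep the enzyme. Each genotype had 1 library enriched with an antibody against m6A (MeRIP) and 1 input library, so there is no replicate error behind any difference between genotypes and no test between them was made.

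Most Zfp proteins carry C2H2 zinc fingers, short folds held by a zinc ion that mostly bind DNA and in some members bind RNA. Many carry a tandem array of such fingers, which is often encoded by a single long last exon. A large subgroup also has a KRAB domain, which recruits the co-repressor Trim28 and the histone methyltransferase Setdb1 to silence transposable elements and imprinted genes. Many of these genes arose by tandem duplication and lie in clusters of close relatives. The m6A mark is placed on nascent transcripts, is enriched in long internal exons and last exons, and affects RNA decay and translation.

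Sequences were examined first for 2 members, because each had a site assigned to it in another annotated gene of chromosome 10. By position these genes run in the order Zfp433, Gm3055, Gm32687 and Zfp781. Zfp433 had WT intervals at chr10:81719857-81721976, inside Zfp433, and at chr10:81878967-81881086, inside the predicted gene Gm32687. Zfp781 had WT intervals at chr10:81901968-81905665, inside Zfp781, and at chr10:81743094-81746575, inside the predicted gene Gm3055. Stretches from the 250 bases before an annotated transcript start are shown to compare each gene with that other gene. They lie before that transcript start, so reads of the transcript need not contain them. The annotated Gm32687 gene begins at chr10:81863769, however, so most of its stretch lies inside the gene. The annotated Zfp433 gene begins at chr10:81704747, so only the end of its stretch does. The stretches come from RefSeq (GRCm38.p6, the assembly of mm10). For the first pair they lie at chr10:81704575-81704781 and chr10:81863684-81863890 on the plus strand. For the second pair they lie at chr10:81930513-81930762 and chr10:81771175-81771424 on the minus strand, wholly upstream of the annotated genes. The capital marks the single mismatch, G31T from Zfp433 to Gm32687, counted from 1 at the first base printed.
Zfp433: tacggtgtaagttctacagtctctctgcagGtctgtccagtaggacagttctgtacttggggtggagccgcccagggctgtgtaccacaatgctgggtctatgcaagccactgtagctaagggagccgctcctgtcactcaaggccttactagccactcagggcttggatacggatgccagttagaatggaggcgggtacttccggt
Gm32687: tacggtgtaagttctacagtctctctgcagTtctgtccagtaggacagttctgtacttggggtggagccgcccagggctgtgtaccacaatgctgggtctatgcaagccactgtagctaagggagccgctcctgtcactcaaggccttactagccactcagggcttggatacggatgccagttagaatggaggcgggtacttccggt
Zfp781: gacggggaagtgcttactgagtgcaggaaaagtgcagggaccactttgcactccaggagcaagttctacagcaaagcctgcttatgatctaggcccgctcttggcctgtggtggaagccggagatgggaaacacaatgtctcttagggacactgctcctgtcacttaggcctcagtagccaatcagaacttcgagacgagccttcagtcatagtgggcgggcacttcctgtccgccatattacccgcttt
Gm3055: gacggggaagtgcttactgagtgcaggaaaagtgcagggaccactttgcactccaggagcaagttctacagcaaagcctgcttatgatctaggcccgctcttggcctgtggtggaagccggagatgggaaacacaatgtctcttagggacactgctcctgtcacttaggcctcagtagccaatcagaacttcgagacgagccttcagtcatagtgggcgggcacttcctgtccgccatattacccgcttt

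In these stretches before a start, Zfp433 and Gm32687 were identical at 206 of 207 aligned bases, of 250 searched. Zfp781 and Gm3055 were identical at 250 of 250. How reads that align to both copies were assigned is not stated in the labels or file headers, and the sequences of the intervals themselves were not compared here. The intervals of Zfp433 and Zfp781 are therefore reported as uncertain, and the main counts are also given without these genes.

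The intervals of Zfp genes were long. Their median width was 1612 bp in WT (155 sites, quartiles 408 and 2510 bp), against 201 bp for the 10359 WT sites of other genes. In KO the median was 1670 bp (53 sites) against 200 bp for 3884 other sites. Intervals of at least 1000 bp made up 65.2% of Zfp sites in WT (101 of 155, 95% Wilson interval 57.4 to 72.2) and 60.4% in KO (32 of 53, 46.9 to 72.4). The share over all sites was 16.8% in WT and 12.8% in KO. Thus Zfp genes gave 1.47% of all WT sites but 5.71% of those of at least 1000 bp, and 1.35% and 6.35% in KO. Without Zfp433 and Zfp781, 97 of 151 WT intervals and 28 of 49 KO intervals had this width. These intervals reflect counting error only, and sites of one library are not replicates.

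**Figure D1:**
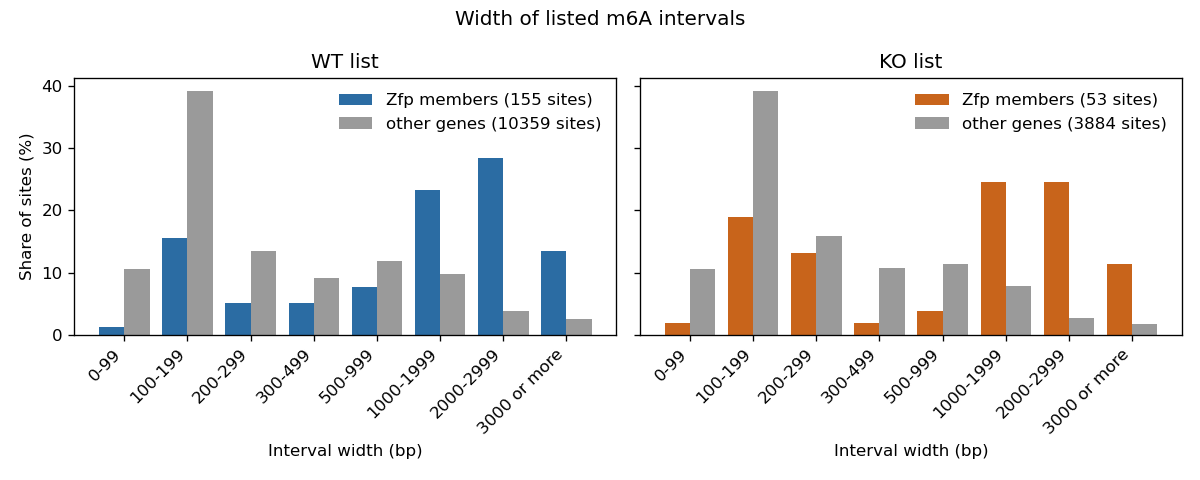
Share of listed sites (percent) in each class of interval width (bp) for WT (left) and KO (right), with coloured bars for Zfp genes and grey bars for all other genes. Other genes peak at 100 to 199 bp, with 39.1% of WT sites, and Zfp genes in the class that starts at 2000 bp, with 28.4% of WT sites.

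Most intervals of Zfp genes spanned either at most 300 bp or at least 1000 bp. In WT 34 of 155 intervals spanned at most 300 bp, 8 lay between 300 and 500 bp and 12 between 500 and 1000 bp. These ranges differ in width, so their counts do not show a gap between separate classes. The members just below the 1000 bp limit were Zfp933 (934 bp), Zfp598 (908 bp), Zfp609 (874 bp) and, in KO, Zfp2 (851 bp). Just above it lay Zfp462 in KO (1010 bp) and Zfp174 (1051 bp), Zfp608 (1096 bp) and Zfp764 (1175 bp) in WT.

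The widest WT interval belonged to Zfp871 and spanned 6713 bp at chr17:32769296-32776008. Zfp518a followed with 5948 bp, Zfp646 with 5349 bp, Zfp629 with 5176 bp and Zfp407, a regulator of glucose uptake in mouse adipocytes, with 4720 bp. The other intervals among the 8 widest belonged to Zfp738 (4175 bp), Zfp111 (3761 bp) and Zfp781 (3698 bp). Of these 8 genes, Zfp871, Zfp518a, Zfp646, Zfp629 and Zfp407 were listed in WT only. By comparison, 90 of the 114 Zfp genes in the WT list were WT only, and 37.9% of all WT genes were also in KO. The 6 widest KO intervals belonged to Zfp462 (4606 bp), Zfp738 (3839 bp), Zfp111 (3691 bp), Zfp106 (3323 bp), Zfp60 (3219 bp) and Zfp182 (3122 bp). Zfp182 was the only one of these 6 without a WT site, where 54.5% of Zfp genes and 69.4% of all genes in KO had one.

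Each site carries the fold enrichment of MeRIP over input that the authors' peak caller gave, and these values serve to describe sites within 1 list. In WT the median fold was 7.62 over Zfp sites and 7.91 over other sites. Long Zfp intervals had a median of 6.94 (101 sites) and shorter ones of 8.52 (54 sites). In KO these medians were 5.77 and 7.59, and the median over all Zfp sites was 6.36, against 6.20 for other sites. The authors' false discovery rate of Zfp sites ran from 9.75% to 100% in WT (median 10.79%, other sites 10.61%) and from 46.18% to 100% in KO (median 48.49%, other sites 48.44%).

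The long intervals lay near the gene's 3′ end. Strand was known and the interval lay inside its annotated gene for 121 of 155 WT sites and 37 of 53 KO sites. Of long WT intervals, 50 of 79 (63.3%) ended within 2000 bp of the annotated 3′ end, and of shorter ones 4 of 42 (9.52%). The same shares over sites of other genes were 63.2% and 9.99%. The shares within 2000 bp were thus close, but the median distance from a long WT interval to the 3′ end was 1309 bp in Zfp genes (95% interval of the median 884 to 1855) and 502 bp in other genes (322 to 696). In KO 20 of 23 long Zfp intervals (87.0%, 67.9 to 95.5) lay there, against 62.3% for other genes. None of 14 shorter ones did (0 of 14, other genes 9.34%). Over all widths the WT share was 44.6% for Zfp genes and 18.4% for other genes.

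The end of the interval coincided exactly with the annotated 3′ end for 8 of 121 WT sites (6.61%, other genes 6.0%) and 8 of 37 KO sites (21.6%, 11.4 to 37.2, other genes 4.31%). Within the long intervals these shares were 7 of 79 in WT (8.86%, 4.36 to 17.2), below the 20.8% of other genes, and 8 of 23 in KO (34.8%, 18.8 to 55.1), where other genes had 16.2%. Without Zfp433 and Zfp781 they were 6 of 77 and 7 of 21. Zfp106, Zfp433 and Zfp644 had such a WT interval, of 3323, 2120 and 1690 bp. WT sites of Zfp genes also lay in shorter genes, with a median annotated gene length of 26216.5 bp, against 55103 bp for other sites. Length was counted once per site, so genes with several sites weigh more. Exons were not available here, so whether an interval spans a last exon was not tested.

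**Figure D2:**
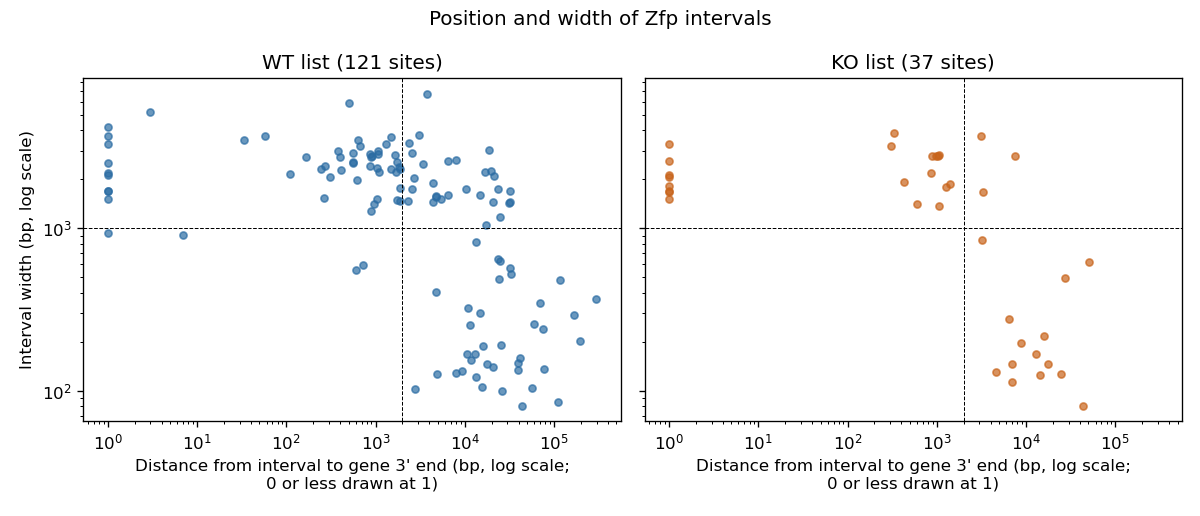
Interval width (bp, log scale) against the distance from the interval's far end to the annotated 3′ end of its gene (bp, log scale, 0 or less drawn at 1), for WT (121 sites) and KO (37 sites) of Zfp genes with a known strand. Dashed lines mark 1000 bp and 2000 bp. Long intervals gather within 2000 bp of the 3′ end (50 of 79 in WT and 20 of 23 in KO), and short ones lie farther inside the gene.

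Zfp genes carried few sites each. The mean was 1.36 sites per listed gene in WT, against 2.08 for other genes, and 1.20 against 1.42 in KO. A single site was listed for 85 of 114 Zfp genes in WT (74.6%, other genes 53.9%) and for 40 of 44 in KO (90.9%, other genes 72.9%). Because the intervals were long, the listed length per gene was nevertheless greater, with a median of 2217 bp in WT against 709 bp for other genes. In KO it was 1803.5 bp against 339.5 bp.

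The members with the most WT sites showed mainly short intervals inside long genes. Zfp827, whose human counterpart recruits the NuRD complex to telomeres, had 5 WT sites with fold 8.29, 15.68, 6.06, 10.95 and 6.70. Only the last of them, nearest the 3′ end, was long, at 3472 bp. Zfp236 had 4 WT sites of 144 to 283 bp, with fold 4.60 to 10.46, and 4 KO sites. Zfp423, a determinant of adipocyte commitment, had 3 WT sites of 85, 201 and 367 bp with fold 8.76, 12.19 and 9.61, and none in KO. Zfp644, a partner of the histone methyltransferase G9a, had 3 WT sites with fold 15.91, 15.08 and 6.02 and none in KO. The 3026 bp site of Zfp644 had the highest score among Zfp sites (687.87) together with a false discovery rate of 100%. Zfp318, required for IgD expression in mouse B cells, had 3 WT sites with fold 8.0, 8.85 and 11.19 and none in KO. Zfp266, a barrier to reprogramming in mouse cells, Zfp512 and Zfp451 also had 3 WT sites, and all of these were listed in KO with 1 site. Zfp106, an RNA-binding protein needed to maintain motor units, likewise had 3 WT sites and 1 KO site.

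Fewer Zfp genes were listed in both genotypes than among all genes. The KO list held 24 of the 114 Zfp genes of the WT list (21.1%, 95% Wilson interval 14.6 to 29.4), against 37.9% of all WT genes. Read from the other side, 24 of 44 Zfp genes with a KO site had a WT site (54.5%, 40.1 to 68.3), against 69.4% of all KO genes. WT only were 90 Zfp genes, and KO only 20, which is 14.9% of the 134 and near the 14.3% over all listed genes. Without Zfp433 and Zfp781 the counts were 22 of 112 (19.6%) and 22 of 42 (52.4%). The lists hold no transcript level, so a gene missing from the KO list is not shown to have lost m6A. In this bulk tissue fewer cells of a type and less RNA per cell cannot be told apart either.

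The number of sites per gene moved with this share. Among genes with 1 WT site, 13 of 85 Zfp genes were also in the KO list (15.3%, 9.16 to 24.4), against 711 of 2677 other genes (26.6%). With 2 WT sites the counts were 6 of 20 (30.0%) and 420 of 1040 (40.4%), and with 3 or more 5 of 9 (55.6%) and 774 of 1254 (61.7%). The Zfp share was thus lower in each class, on small counts whose intervals reach the share of other genes in the classes of 2 and of 3 or more sites, and Zfp genes were concentrated in the class with 1 site, where the share was lowest for other genes too. Among genes whose single WT site was long, 12 of 73 Zfp genes (16.4%) and 190 of 782 others (24.3%) were also in KO, and the interval of the Zfp share (9.66 to 26.6) holds that of the others. Where the single site was shorter the counts were 1 of 12 and 521 of 1895 (27.5%).

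Site by site the picture differed. A KO site overlapped 22 of 155 WT sites of Zfp genes by at least 1 bp (14.2%, 9.56 to 20.6), against 12.2% of all WT sites. From the KO side 21 of 53 were overlapped (39.6%, 27.6 to 53.1), against 32.6%. Without Zfp433 and Zfp781 the counts were 18 of 151 (11.9%) and 17 of 49 (34.7%). With a reciprocal overlap of at least 50% required, 19 of 155 WT sites were overlapped (12.3%, all sites 11.9%). Site overlap for Zfp genes was therefore near that of all sites.

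The 22 overlapping pairs lay in 18 genes, and in every pair both intervals were assigned to the same gene. The ends were identical in 7 of 22 pairs (31.8%), against 79.1% of all 1289 pairs. Among pairs with a long WT interval 2 of 17 had identical ends (11.8%, 3.29 to 34.3), against 82 of 199 in other genes (41.2%), and among short pairs 5 of 5, against 930 of 1068. The lower share was thus also present among long pairs alone. Without Zfp433 and Zfp781 identical ends were found in 6 of 18 pairs and in 1 of 13 long pairs. In 18 of 22 pairs (81.8%) at least 1 end was shared, while 79.1% of all pairs already share both ends. The KO interval was narrower in 12 pairs, wider in 3 and equal in 7. The single wide KO interval of Zfp462 is counted in both of its pairs. These width counts were not made for other genes.

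The fold of these pairs ran from 4.60 to 16.05 in the WT list (median 7.54) and from 4.06 to 12.27 in the KO list (median 6.28). At Zfp433 both lists held the same 2120 bp interval at chr10:81719857-81721976, with fold 16.05 in WT and 8.15 in KO. At Gm32687, also assigned to Zfp433, the fold was 12.16 in WT and 5.14 in KO. Zfp433 thus held the highest WT fold of any Zfp site. At Zfp781 the WT interval of 3698 bp had fold 7.54 and the KO interval of 2770 bp fold 6.52, and at its copy Gm3055 these were 8.03 (3482 bp) and 8.29 (1278 bp).

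Zfp738 had an interval of 4175 bp with fold 13.38 in WT and of 3839 bp with fold 6.45 in KO, sharing its end at chr13:67671611. Zfp462, which guards heterochromatin with G9a in mouse embryonic stem cells, had adjoining WT intervals of 2531 and 2997 bp with fold 6.21 and 13.62. A single KO interval of 4606 bp with fold 5.85 and a false discovery rate of 97.05% overlapped both. Zfp462 was also the member with the most KO sites, at 5, against 2 in WT. Its other KO intervals, of 133 to 1010 bp and fold 6.81 to 12.24, had no WT counterpart. Zfp451, a SUMO ligase in human, had the same 81 bp interval in both lists, with fold 6.82 in WT and 12.27 in KO.

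Zfp106 had the same 3323 bp interval at its 3′ end in both, with fold 6.20 in WT and 4.17 in KO. Zfp131, which combines a BTB domain with zinc fingers, shared an interval of 145 bp with fold 9.35 in WT and 6.87 in KO. Zfp266 shared one of 167 bp, with fold 11.83 in WT and 7.42 in KO. Zfp236 shared intervals of 283 bp (4.60 in WT, 4.79 in KO) and 229 bp (9.31 in WT, 7.76 in KO). These short pairs, with that of Zfp451, made up the 5 with identical ends among short intervals, and none lay near a 3′ end where the strand was known.

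The remaining pairs were all long in WT. The KO interval was narrower at Zfp184 (WT 2057 bp, KO 1939 bp), Zfp251 (2474 and 2252 bp), Zfp763 (2551 and 1414 bp), Zfp954 (1518 and 1508 bp), Zfp606 (3203 and 2809 bp), Zfp324 (2970 and 2796 bp), Zfp111 (3761 and 3691 bp) and Zfp60 (3488 and 3219 bp). It was wider at Zfp11 (1466 and 2804 bp). Zfp184, Zfp251 and Zfp606 were listed with fold 7.78, 4.66 and 6.84 in WT and 8.81, 6.19 and 7.22 in KO. Zfp184 had a KO false discovery rate of 100%. Zfp324, Zfp763, Zfp60 and Zfp111 were listed with fold 8.75, 7.54, 7.22 and 6.0 in WT and 5.38, 4.90, 5.16 and 4.06 in KO. Fold values of the lists come from separate peak calls, so they stand side by side and no ratio was taken.

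**Figure D3:**
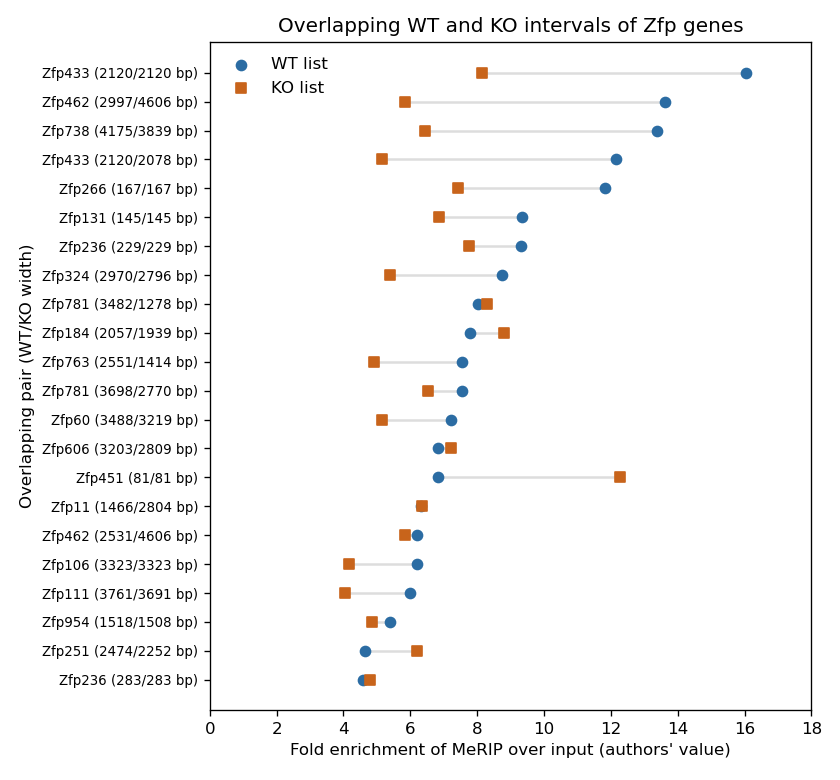
Fold enrichment of MeRIP over input as the authors' caller gave it, for each of the 22 overlapping pairs of Zfp genes, with WT as circles and KO as squares, and the widths of both intervals in the row name. WT values run from 4.60 to 16.05 and KO values from 4.06 to 12.27, and Zfp451 has the highest KO value.

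In 6 genes listed in both genotypes no WT site overlapped a KO site. Zfp326, a subunit of the DBIRD complex that links transcript elongation with splicing, had WT sites of 134 and 550 bp with fold 10.70 and 5.19, and a KO site of 492 bp with fold 7.84 between them. Zfp622, which acts in maturation of the large ribosomal subunit, had WT sites with fold 8.97 and 9.12 and a KO site of 113 bp with fold 6.55. Zfp800, whose human counterpart represses endocrine differentiation in the gut, had a WT site of 1687 bp with fold 8.33 and a KO site of 619 bp with fold 7.73, the latter 50748 bp from the gene's 3′ end. Zfp790 had a WT site of 2866 bp with fold 6.91 near its 3′ end and a KO site of 218 bp with fold 6.60 at its start. The others were Zfp512 and Zfp777. Thus 18 of 24 genes (75%, 55.1 to 88.0) listed in both had an overlapping pair, against 54.1% over all genes. Without Zfp433 and Zfp781 it was 16 of 22 (72.7%), with an interval of 51.8 to 86.8 that holds the share of all genes. Overlap needed only 1 bp and Zfp intervals were wider than others, and the effect of width on this share was not tested.

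The window around the annotated start was searched in members whose interval reaches into it, because the m6A consensus includes the letters GGAC. Transcribed strand only was searched, in the 50 bases after the start. The letters lay inside the listed interval in 2 of 10 such windows of Zfp genes. Of 32851 RefSeq start windows of the same length, 18.9% held them anywhere in the window. That is a looser count, so the 2 values are not directly comparable. The matches are shown with the motif in capitals, at chr5:105876591-105876617 (plus strand) in the WT interval of Zfp326 and at chr7:29816102-29816121 (plus strand) in the KO interval of Zfp790.
Zfp326: gggccggtcgtgtGGACactgccgtat
Zfp790: agaccggaatgtaGGACccc
A match describes the letters and is not a mapped m6A position.

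The 90 WT-only genes had a median best fold of 7.70 (4.57 to 15.91). A single site was listed for 72 of them, and the widest interval was long in 73. Of all Zfp genes in the WT list 74.6% had 1 site, and 65.2% of all WT Zfp sites were long, counted by site. By best WT fold the leading WT-only genes were Zfp644 (15.91), Zfp827 (15.68), Zfp605 (14.11), Zfp758 (13.44), Zfp423 (12.19), Zfp706 (12.10), Zfp592 (12.00) and Zfp553 (11.92). Zfp706 is needed for mouse embryonic stem cells to leave self-renewal, and the human counterpart of Zfp592 belongs to a corepressor complex with ZMYND8. Zfp605 and Zfp758 each had 1 site, of 2548 and 2224 bp, the latter with a false discovery rate of 56.62%.

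The 20 KO-only genes each had 1 site, as did 90.9% of all Zfp genes in KO. Of these sites 15 were long, beside 60.4% of all KO Zfp sites. Their median fold was 5.86 (3.89 to 9.55). The highest fold was that of Zfp697, an RNA-binding protein of regenerating mouse muscle, with 9.55 and 278 bp. Zfp821 followed with 7.83 (145 bp), Zfp12 with 7.59 (197 bp) and Zfp2 with 7.34 (851 bp). Zfp40, Zfp617, Zfp595 and Zfp787 had long intervals of 2444, 2612, 1670 and 1683 bp with fold 6.36, 6.16, 6.12 and 6.01. Zfp354c (1819 bp) and Zfp637 (130 bp) both had fold 5.87. The KO sites of Zfp617 and Zfp787 ended at the annotated 3′ end of the gene.

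Members were also grouped by known role. For reference, 22.6% of all protein-coding genes and 28.7% of annotated Zfp genes had a WT site, and 12.3% and 11.1% a KO site, so the small counts below are described and not read as particular to a role. Of 15 genes for RNA-binding or RNA-linked proteins, 5 had a WT site, 4 a KO site and 3 both (Zfp106, Zfp326 and Zfp622). WT only were Zfp207, a spindle assembly factor (fold 8.53), and Zfp598, the ubiquitin ligase that marks collided ribosomes (9.82), and KO only was Zfp697. No site was listed for Zfp36, Zfp36l1 or Zfp36l2, which promote decay of AU-rich mRNAs. Of 9 repressors of imprinted genes and retroelements, 2 were listed in WT and 0 in KO. These were Zfp809, which silences retroviruses in mouse embryonic cells (6.94, 321 bp), and Zfp932, a repressor of endogenous retroviruses (7.58, 1780 bp). Zfp57 and Zfp445, which maintain imprints, had no listed site.

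Of 34 developmental and stem cell regulators, 16 were listed in WT and 2 in KO, Zfp462 and Zfp131, both also in WT. The 2 of 16 stand beside 24 of 114 for all Zfp genes with a WT site. The 14 listed in WT only included Zfp281, a pluripotency factor, with 1 interval of 3628 bp (fold 6.77), and Zfp148, which binds GC boxes, with 2 short intervals (fold 8.51 and 5.72). Zfp217, which binds and sequesters Mettl3 in mouse embryonic stem cells, had intervals of 1512 and 1735 bp with fold 6.44 and 5.45. Zfp410, an activator of the NuRD gene Chd4, had 1 interval of 702 bp (fold 8.72). Zfp618, a partner of Uhrf2, had a best fold of 11.00. Zfp516, which drives brown fat genes, and Zfp750, which drives epidermal differentiation, had intervals of 1455 and 1606 bp with fold 5.63 and 5.78. Zfp608, Zfp609 and Zfp64 had best folds of 8.69, 6.10 and 5.14, and Zfp423, Zfp592, Zfp644 and Zfp827 are given above.

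The partners through which KRAB proteins act were also counted. Of 22 co-repressor and heterochromatin genes, 16 had a WT site, 11 a KO site and 9 both, and the 9 of 16 stand beside 37.9% of all WT genes. Those in both were Atf7ip, the Setdb1 partner (best fold 12.35 in WT, 8.48 in KO), the heterochromatin proteins Cbx3 (10.09, 4.45) and Cbx5 (8.04, 3.82), the deacetylase Hdac2 (9.81, 5.99), the NuRD remodeller Chd3 (9.68, 4.97) and the maintenance DNA methyltransferase Dnmt1 (10.39, 8.14). Mphosph8 (18.36, 5.68) and Pphln1 (11.13, 7.98), subunits of the HUSH silencing complex, and the chromatin remodeller Atrx (11.71, 4.92) were the others. WT only were Setdb1 (9.82), Cbx1 (7.65), Hdac1 (14.90), Smarcad1 (9.97), Morc3 (6.58), Daxx (8.33) and Sumo2 (6.13). KO only were Chd4 (5.32) and the HUSH subunit Tasor (6.85), and Trim28 itself had no listed site. Several of these genes carried many WT sites, 11 in Atrx and 7 in Dnmt1, and the share in both rose with the number of sites in other genes as well. In KO, Atrx had 1 site and Dnmt1 had 2. A best fold is the highest over all sites of a gene, so more sites give it more chances to be high. The WT and KO values can also come from different sites. No KO site overlapped the 38 bp WT interval of Mphosph8. The best folds are therefore not a comparison between genotypes.

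Other zinc finger families showed long intervals too. Of Zbtb sites in WT, 11 of 17 (64.7%) were long, and of 16 Zbtb genes with a WT site 5 were in both (31.2%, all genes 37.9%). In both were also 1 of 6 Zscan, 1 of 4 Zkscan and 3 of 7 Klf genes with a WT site. Of Zscan sites 6 of 8, of Zkscan sites 3 of 6 and of Klf sites 3 of 8 were long in WT. In KO 3 of 9 Zbtb, 0 of 1 Zscan, 2 of 3 Zkscan and 0 of 3 Klf sites were long. The WT counts stand beside 65.2% of Zfp sites and 16.8% of all sites, and the KO counts are too few to place.

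Against the annotation, 114 of 397 protein-coding Zfp genes (28.7%) had a WT site, compared with 22.6% of 21896 protein-coding genes, and 44 (11.1%) had a KO site, compared with 12.3%. No site was listed for 263. Chromosome 7, with 93 annotated Zfp genes, held 23 in the WT list and 11 in the KO list, 6 of them in both. Chromosome 17, with 46, held 18 in WT with 20 sites but only 2 in KO with 2 sites, while over all genes it had 2.75 times as many WT as KO sites. Chromosome 8 held 8 WT and 4 KO genes with 0 in both. This small count stands beside 21.1% of all Zfp genes and 37.9% of all genes with a WT site.

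Clusters of at least 3 Zfp genes with gaps of at most 100000 bp held 182 of the annotated genes, of which 46 (25.3%) had a WT site, 23 a KO site and 10 both. Of the 215 genes outside clusters, 68 (31.6%) had a WT site, 21 a KO site and 14 both. The share of WT genes also in KO was 21.7% in clusters and 20.6% outside them. The cluster at chr17:21383707-21994366 had 13 genes, of which Zfp51, Zfp52, Zfp53, Zfp229, Zfp942 and Zfp948 were in WT and 0 in KO. At chr9:22188166-22307814 all 4 genes, Zfp809, Zfp810, Zfp599 and Zfp872, were in WT and 0 in KO. At chr13:67038594-67827000 only 2 of 23 genes were in WT, Zfp729a and Zfp738, and 2 in KO, Zfp595 and Zfp738. In 3 clusters the listing ran the other way, with 0 genes in WT and 2 in KO. These were Zfp787 and Zfp28 on chromosome 7, Zfp354c and Zfp2 on chromosome 11, and Zfp617 and Zfp961 on chromosome 8. These clusters were chosen after their values were seen, as were the genes named for them. Their small counts stand beside the 21.7% over all clusters, and genes of other families were not counted there.

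**Figure D4:**
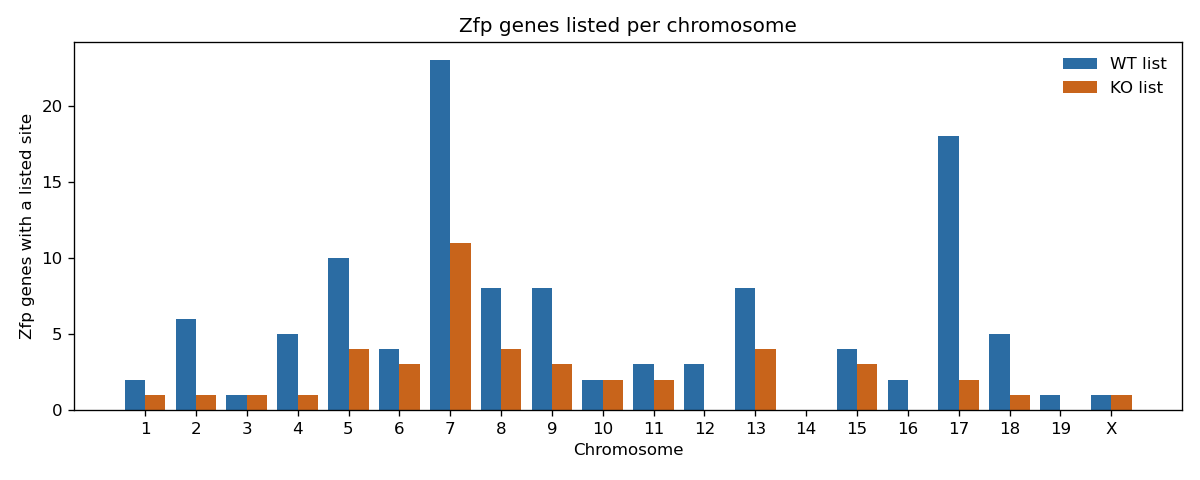
Number of Zfp genes with a listed site on each chromosome, in WT (blue) and KO (orange). Chromosomes 7 (23 in WT, 11 in KO) and 17 (18 in WT, 2 in KO) hold the most in WT.

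The labelled tissue was checked on markers, which the lists can show only where a transcript carries a site. Beside the 22.6% (WT) and 12.3% (KO) over all protein-coding genes, 9 and 7 of 17 pancreatic epithelium genes were listed, but the defining genes Pdx1, Ptf1a, Neurog3 and Cpa1 had none. Listed in WT and in KO were 5 and 4 of 8 mesenchyme genes, 1 and 1 of 4 endothelium genes, 2 and 2 of 5 blood genes, 1 and 1 of 3 neural genes, and 2 and 0 of 2 liver genes. The part of other cell types in the Zfp listing was not tested.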

How the data were processed

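The tools cutadapt 1.9.3 and HISAT2 2.0.4 and the build mm10 are named per the submitters' processing notes. Peak names begin with MACS, per the file headers and rows. No label or header gives the caller's version or the handling of multiply aligned reads. Scores, as the authors deposited them, are the negative log10 of the p-value times 10, per the file headers, and none was below 50. The fold is the authors' ratio of MeRIP to input, and the match of each MeRIP to its own input is assumed from the labels. False discovery rates were taken as percent as deposited. Depth is unknown, as the lists hold no read counts.

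Starts were taken as 0-based (442 WT sites then begin at an annotated gene start, against 36 otherwise) and are printed 1-based. Overlap needed 1 bp and ignored strand. Strand and gene ends came from RefSeq tables of GRCm38.p6. Counts were made with pandas 2.3.3, and the overlap code was tested on simulated data. No test was run, because each genotype had 1 library of each kind. Members and lists were chosen with earlier results of these data known. Named members were those with an overlapping pair, the 8 with most WT sites, the 8 WT-only and 10 KO-only of highest fold, the 8 and 6 widest intervals in WT and KO, and listed members of the role lists. Others named were chosen after their values were seen. Alternatives changed the fold and false discovery limits, the list length, the overlap, the width limit and the symbols.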

Additional observations from a re-analysis of the deposited data

How the results depend on the processing

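Of 23 alternative values, 15 stayed close to those reported and 8 moved. Close means within 1.5 times for a count and within the 95% interval of the median for a width. Several of the 15 had little or no room to move, so the tally does not measure robustness. Counting the same start and end once removed no site from the 155 in WT and 53 in KO. Leaving out Zfp433 and Zfp781 took little from each count. The 95% interval of the KO median was wide, from 492 to 2078 bp. Limiting both lists to a false discovery rate of at most 50% left 14 of 113 Zfp genes in both (12.4%, all genes 30.2%) and 12 of 152 WT sites overlapped (7.89%, all sites 8.02%). Keeping as many WT sites as the KO list holds, ranked by score, left 14 of 59 genes in both (23.7%, all genes 44.9%) and 11 of 68 sites overlapped (16.2%, all sites 15.1%). Ranking by fold left 11 of 43 genes (25.6%, all genes 43.9%). The Zfp share of genes in both was below that of all genes under each of these settings, and also at a fold of at least 5 (19 of 112, 17.0% against 32.0%). With an overlapping pair required it was 18 of 114 (15.8%, all genes 20.5%). A width limit of 2000 bp left 65 of 155 long intervals in WT (41.9%) and 19 of 53 in KO (35.8%). With only the widest interval of each gene, the median WT width was 2124.5 bp. The alternative without Zfp433 and Zfp781 was added after seeing the data. No paired analysis was possible because each group has 1 library and no result comes from a test. Leaving out a library was not possible for the same reason. Sequencing depth is unknown, so a site missing from the shorter KO list may lie below what that library could detect, and this was not tested.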

Other observations

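The deposited annotation terms described the Zfp genes unevenly. The authors' deposited table gave the term "regulation of transcription, DNA-templated" to 84 of 134 Zfp genes (62.7%), against 11.3% of other listed genes, and "nucleic acid binding" to 33.6%, against 5.28%. A pathway entry in the authors' deposited table was present for 1 of 134 Zfp genes, against 38.1% of other listed genes.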
